A study of Homo sapiens with 8 samples.

Results

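MYO7B and ADCYAP1 are 2 genes of the 63677 listed in a table of RNA-seq counts from TAL1-FKBP12 Jurkat cells, and both were expressed highly enough to be tested among 15646 genes. They were chosen by their measured values: a strong fall with GSI in CPM (reads of a gene scaled to a common library size), in genes whose known sites of action lie outside the T lineage. Their fall with GSI is therefore described here without a test, and the tests concern the effect of dTAG-13 and the genes around them. The rule of choice named the fall with GSI and not the effect of dTAG-13. The comparisons of dTAG-13 with DMSO, and of the combination with GSI, share libraries with the choice. Jurkat is an established cell line from a human acute T-cell leukaemia. In every library the cells carried the transcription factor TAL1 fused to FKBP12, the tag through which the degrader dTAG-13 brings a protein to a ubiquitin ligase. They were grown in tetracycline-free serum and treated for 24 hours with DMSO as the solvent control, with dTAG-13, with GSI, which usually stands for gamma-secretase inhibitor, or with dTAG-13 and GSI together, here named the combination. There were 2 libraries for each of the 4 treatments, all from the tagged line, and the labels give no doses. Whether the line is 1 clone, and whether replicates came from separate cultures, is not stated: p-values therefore capture only how far these libraries differ, which may be technical.

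Gamma-secretase cuts activated NOTCH receptors within the membrane, and the freed intracellular part binds the DNA-binding protein RBPJ and switches on its target genes. MYO7B encodes an unconventional myosin, an actin-based motor known from the brush border of gut and kidney epithelium. There it sits with the scaffolds USH1C and ANKS4B at the tips of microvilli, which are tied together by the cadherins CDHR2 and CDHR5, and CALML4 serves it as a light chain. ADCYAP1 encodes the precursor of PACAP, a secreted neuropeptide of the brain, peripheral nerves and endocrine tissue that raises cyclic AMP in cells carrying its receptors, ADCYAP1R1, VIPR1 and VIPR2.

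In RefSeq on GRCh38.p14, MYO7B spans positions 127535683 to 127637726 of chromosome 2 and ADCYAP1 spans positions 904411 to 912172 of chromosome 18, both on the plus strand. The counts were made on another build (hg19), so these places come from the annotation alone. The sequence before the outermost RefSeq start of MYO7B is shown because it is the window in which the searched motifs of NOTCH- and TAL1-linked factors could be looked for outside the gene. It covers chr2:127535433-127535682 on the plus strand, 5′ to 3′, credited to RefSeq, and capitals mark E-boxes (CANNTG, the kind of site bound by basic helix-loop-helix factors such as TAL1 with its partners).
MYO7B: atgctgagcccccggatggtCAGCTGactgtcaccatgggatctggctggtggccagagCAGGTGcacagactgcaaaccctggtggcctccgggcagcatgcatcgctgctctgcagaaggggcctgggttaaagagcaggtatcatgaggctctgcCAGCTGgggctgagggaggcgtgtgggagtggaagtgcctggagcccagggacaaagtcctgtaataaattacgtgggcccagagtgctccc

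These 250 bases held 3 E-boxes, CAGCTG at 230 and 92 bases and CAGGTG at 191 bases before the start. An E-box is common: 61.8% of the 35116 RefSeq windows of this length held one on either strand. The core of the RBPJ site, TGGGAA, was found in 20.8% of all windows but in 0 of the 4 windows listed for the genes, which were 2 starts of MYO7B and 2 of ADCYAP1. The GATA motif AGATAA and the RUNX motif TGTGGT, present in 9.17% and 11% of all windows, were also in 0 of these 4. TATAAA was found at 1 place, before the inner start of MYO7B, against 10.7% of all windows. Both ADCYAP1 windows lie within its annotated span, so the bases before position 904411 were not searched. Of these windows, the outer held no E-box and the inner held 2, CAAGTG and CAGCTG. Which start these cells used was not measured, and a match is a description of the letters only.

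MYO7B stood at 1631 and 1634 CPM in the DMSO libraries numbered 1 and 2, and at 1641 and 1665 CPM with dTAG-13. With GSI it stood at 497 and 509 CPM, and with the combination at 629 and 512 CPM. The 4 libraries without GSI lay close together, and the highest of the 4 with GSI lay 1002 CPM below the lowest DMSO library. Behind these values were 10553 to 35996 counts per library, so the counting error of a single value was below 1%.

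ADCYAP1 was far lower, at 15.3 and 12.5 CPM with DMSO and at 6.54 and 7.32 CPM with dTAG-13. It stood at 4.51 and 4.34 CPM with GSI and at 3.3 and 2.59 CPM with the combination. From highest to lowest, the group means of ADCYAP1 ran in the order DMSO, dTAG-13, GSI and combination. The place of GSI below DMSO was part of the choice. Its counts ran from 54 to 276 per library, which gives a counting error of 6.02% to 13.6% of each value.

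**Figure D1:**
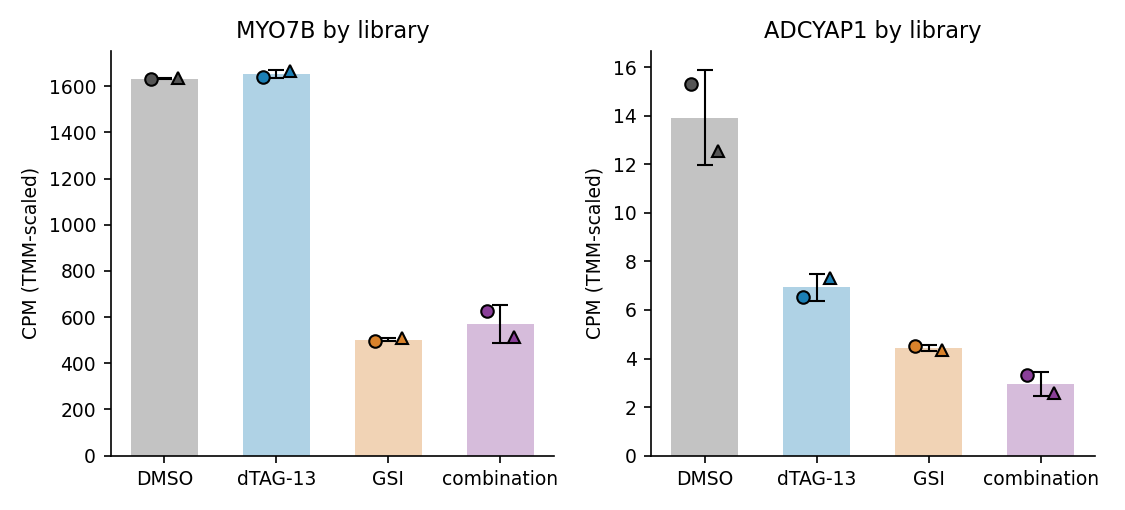
CPM of MYO7B (left) and ADCYAP1 (right) in each library. Bars are group means, error bars are SD of 2 libraries, circles are replicate 1 and triangles replicate 2; MYO7B shows 2 levels, with and without GSI, while ADCYAP1 shows 4 steps from 13.9 CPM with DMSO to 2.95 CPM with the combination.

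Per kilobase of exon, the level of MYO7B with DMSO was 186 CPM per kb, which ranked 150 among the 52526 listed genes whose exon length could be taken from GENCODE 29. The median of tested genes was 4.31 CPM per kb. With GSI the level was 57.2 CPM per kb (rank 707) and with the combination 64.8 CPM per kb (rank 600), so MYO7B was still far above the median tested gene with the inhibitor. ADCYAP1 was an ordinary gene by this measure, at 3.66 CPM per kb with DMSO (rank 8137) and 0.775 CPM per kb with the combination (rank 12455).

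The fall that chose the genes was of like size in both when GSI was given alone. MYO7B went from 1633 ± 2.38 to 503 ± 8.28 CPM (mean ± SD, n = 2). Its log2 fold change was -1.70 (SE 0.11), which left 30.8% of the DMSO mean. ADCYAP1 went from 13.9 ± 1.96 to 4.42 ± 0.116 CPM, with a change of -1.65 (SE 0.16) on that scale, which left 31.8%. Among the 10555 tested genes whose mean reached 5 CPM, these were the 8th and the 10th most negative values. Among all 15646 tested genes they were the 31st and the 36th. Over all tested genes the median log2 fold change was 0.01, and edgeR called 0.863% lower and 0.876% higher.

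GSI given on top of dTAG-13 uses 4 other libraries than GSI against DMSO. There MYO7B went from 1653 ± 16.9 CPM with dTAG-13 to 570.4 ± 82.4 CPM with the combination (log2 fold change -1.54, SE 0.11). ADCYAP1 went from 6.93 ± 0.549 to 2.95 ± 0.506 CPM (-1.23, SE 0.18). The median over all genes was -0.00, with 0.569% called lower and 0.639% higher. Against DMSO, the combination left 34.9% of MYO7B (-1.52, SE 0.11) and 21.2% of ADCYAP1 (-2.23, SE 0.17). In the authors' deposited tables MYO7B had log2 fold changes of -1.71 with GSI and -1.52 with the combination, and ADCYAP1 had -1.66 and -2.24.

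The effect of dTAG-13 was not named in the rule of choice, but the genes were picked with earlier results of these data known. Its comparison with DMSO shares the DMSO libraries with the choice, and the combination against GSI shares the GSI libraries. Choosing genes high with DMSO pulls dTAG-13 against DMSO downward. Choosing them low with GSI pulls the combination against GSI upward. For MYO7B, the log2 difference between dTAG-13 and DMSO was 0.02 (SE 0.10), with a 95% interval of -0.21 to 0.24 and an adjusted p of 1 in edgeR's quasi-likelihood test. The 2 dTAG-13 libraries were above both DMSO libraries by a gap of 7.2 CPM, which is small beside a level of 1633 CPM. With GSI present, MYO7B was 0.18 higher on the log2 scale in the combination than with GSI alone (SE 0.10, adjusted p = 0.999, 95% interval -0.04 to 0.41). That value rests on the library numbered 1 of the combination: without it the difference was 0.03, and without the library numbered 2 it was 0.32.

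ADCYAP1 had a log2 fold change of -1.0 with dTAG-13 against DMSO (SE 0.15, 95% interval -1.33 to -0.67), which left 49.8% of the DMSO mean. The adjusted p of 0.0697 in edgeR's quasi-likelihood test over all 8 libraries missed the threshold of 0.05. In that comparison edgeR called 0.0192% of genes lower and 0% higher, 3 and 0 genes, and 601 had an unadjusted p below 0.05, while DESeq2 called 21. Among the tested genes with at least 5 CPM, the change of ADCYAP1 was the 3rd most negative, and among all 15646 tested genes the 129th. Other fits passed it: the Wald test of DESeq2 gave an adjusted p of 0.0108, edgeR on the 4 compared libraries alone 0.000306, and edgeR without the filter on low counts 2.8e-06. In the authors' deposited table the value was -1.0 (SE 0.21, adjusted p = 0.00274). Leaving out any 1 of the 4 libraries in the fit of all groups gave adjusted p-values between 0.296 and 0.885.

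With GSI present the value of ADCYAP1 was -0.58 in the combination against GSI (SE 0.19, adjusted p = 0.886, 95% interval -1.0 to -0.16), and edgeR called 0.0383% of genes lower and 0.0192% higher there. These 4 libraries are not among those of dTAG-13 against DMSO, but the 2 GSI libraries are among those that chose the gene. The average of the dTAG-13 effect over cells without and with GSI uses all 8 libraries and is balanced against the GSI effect. ADCYAP1 fell by 0.79 on the log2 scale in this average (SE 0.12, edgeR adjusted p = 0.0143, 95% interval -1.06 to -0.52), where 0.422% of genes were called lower and 0.0767% higher. The call did not hold without DMSO replicate 1 (adjusted p = 0.102), dTAG-13 replicate 1 (0.0743) or dTAG-13 replicate 2 (0.0522). MYO7B had an average of 0.10 (SE 0.07, adjusted p = 0.999, 95% interval -0.06 to 0.26).

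**Figure D2:**
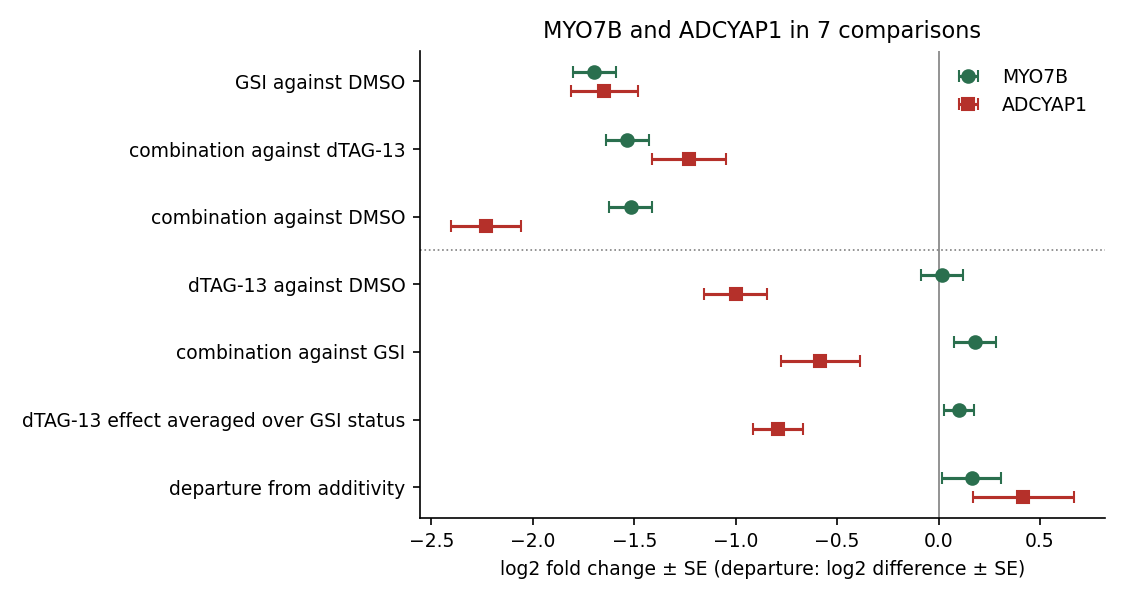
Log2 fold change ± SE of MYO7B (circles) and ADCYAP1 (squares) in 7 comparisons, from 1 fit of 8 libraries. Rows above the dotted line contain the GSI effect that chose the genes, and both genes are negative there. Among these rows, the combination against DMSO also holds the effect of dTAG-13. Below the line the dTAG-13 effects of ADCYAP1 lie between -1.0 and -0.58 and those of MYO7B between 0.02 and 0.18. The last row is the departure from additivity explained below, at 0.16 for MYO7B and 0.42 for ADCYAP1. That row also contains the GSI effect that chose the genes, with its sign reversed.

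A direct comparison of the genes used the log2 ratio of ADCYAP1 to MYO7B within each library. Without GSI the ratio was -6.73 and -7.02 with DMSO and -7.95 and -7.81 with dTAG-13. With GSI it was -6.76 and -6.84, and with the combination -7.53 and -7.58. All 4 libraries with dTAG-13 lay below all 4 without it, and the ratio hardly differed between DMSO and GSI. The dTAG-13 effect on the ratio was -0.88. The ratio was formed after its values had been seen, so it is a description with no test.

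Departure from additivity, the gap between the combination and what both drugs alone add up to, asks whether each drug acts the same with and without the other. It was 0.16 for MYO7B (SE 0.15, adjusted p = 1) and 0.42 for ADCYAP1 (SE 0.25, adjusted p = 1, 95% interval -0.12 to 0.96). The fall with GSI against DMSO, which chose both genes, is subtracted in this departure, so the choice pulls both values upward. For MYO7B and ADCYAP1 the test therefore cannot decide the question. edgeR called 0% of genes in either direction here, with 260 genes at an unadjusted p below 0.05, and DESeq2 called 0. In CPM, the difference of ADCYAP1 was -6.99 for dTAG-13 minus DMSO and -1.48 for the combination minus GSI.

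NOTCH-linked genes, listed with earlier results of these data known, were read in the same libraries. Of 8 such genes, 5 fell with GSI against DMSO and the same 5 with the combination against dTAG-13: DTX1, a ubiquitin ligase induced by NOTCH, the repressors HES1 and HES4, the receptor NOTCH3, and MYC, the growth regulator. Over all tested genes 0.863% were called lower in the first comparison and 0.569% in the second. In GSI against DMSO the log2 fold changes of these 5 ran from -2.97 for DTX1 to -0.94 for MYC. Those of MYO7B and ADCYAP1, which were chosen for their fall, lay between. The median of the 8 genes was -1.45 with GSI against DMSO, beside 0.01 over all genes. NOTCH1, RBPJ and MAML1 did not pass. With dTAG-13 against DMSO the log2 fold changes of the 8 genes ran from -0.52 to 0.30, with 2 at an unadjusted p below 0.05. There edgeR called 0 of the 8 and DESeq2 called 1, DTX1. Over all 15646 tested genes 601 had such an unadjusted p, and edgeR called 3 and DESeq2 21. Whether NOTCH has a part in the falls of MYO7B and ADCYAP1 was not tested.

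The genes whose levels ran most like each member over the 8 libraries were not the same. For MYO7B, those at ranks 2 to 5 were ZDHHC8, a palmitoyltransferase (Pearson r of log2 CPM 0.99), NOTCH3 (0.99), CCRN4L, the circadian deadenylase nocturnin (0.99) and IGHV4-34, an immunoglobulin variable segment (0.99), out of 10229 candidates. Their log2 fold changes with GSI against DMSO differed in size, at -0.31 for ZDHHC8, -1.97 for NOTCH3, -0.39 for CCRN4L and -0.78 for IGHV4-34. NOTCH3 stood at 84.2 ± 3.94 CPM with DMSO and 102 ± 5.28 with dTAG-13, and at 21.5 ± 3.15 with GSI and 26.1 ± 7.13 with the combination. For ADCYAP1 they were GIMAP2 (0.986), GIMAP4 (0.986), GIMAP6 (0.976) and GIMAP7 (0.967), small GTPases of lymphocytes, and RCBTB2 (0.966). GIMAP4, picked by its likeness to ADCYAP1 in these libraries, took the same 4 steps. It stood at 81.9 ± 4.53 CPM with DMSO, 62.6 ± 0.922 with dTAG-13, 47.8 ± 0.487 with GSI and 35.7 ± 2.66 with the combination. MYO7B and ADCYAP1 themselves had an r of 0.84 and a Spearman rho of 0.571. These correlations describe libraries that share treatments, and 77 genes had an r above 0.95 with MYO7B and 11 with ADCYAP1. With Spearman's rho in place of Pearson's r, 0 of the 5 genes for MYO7B and 1 of the 5 for ADCYAP1, GIMAP2, came up again.

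**Figure D3:**
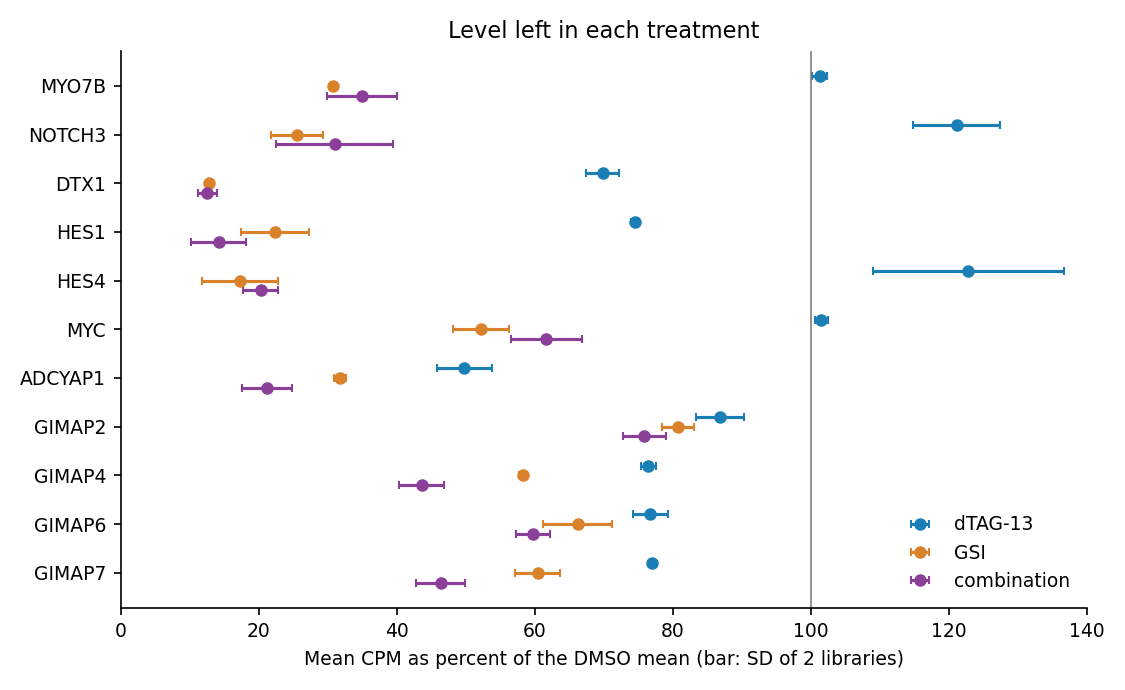
Mean CPM of each gene with dTAG-13, GSI and the combination as a percent of its DMSO mean; bars are SD of 2 libraries and the grey line marks 100%. MYO7B and MYC sit near 100% with dTAG-13, while NOTCH3 sits at 121% and ADCYAP1 at 49.8%. The 4 GIMAP genes, picked by their likeness to ADCYAP1, also lie left of the line.

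MYO7B was by far the most abundant of the unconventional myosins in cells without GSI. Per kb its level with DMSO was 7.71 times that of MYO1G, a class I myosin of blood cells. MYO1G was the next in that order among the unconventional myosins with an exon length. MYO19, at 98.5 CPM with DMSO, had none and could not be placed. With GSI alone the means were closer, at 503 CPM for MYO7B and 329 CPM for MYO1G. Reads of MYO7B made up 72 ± 0.595% of those on it and the 23 other unconventional myosins with DMSO, 74.6 ± 0.512% with dTAG-13, 39.5 ± 0.366% with GSI and 45.8 ± 2.47% with the combination. MYO7A, the closest relative and the motor of inner ear hair cells, had means of 0.116 to 0.167 CPM over the groups. Whether reads of either gene were counted for the other was not tested.

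Of 16 other unconventional myosins tested, 1 rose with GSI against DMSO, 0 fell and 15 did not pass (median log2 fold change 0.06, 4 at an unadjusted p below 0.05). Over all tested genes 0.863% were called lower and 0.876% higher there, so 0 lower in a list this short is near that share. The same holds for the counts of 0 in the lists below. Of all 15646 tested genes, 2197 had an unadjusted p below 0.05 in GSI against DMSO, and such counts in the lists are to be read beside that share. The one that rose was MYO1G, from 209 and 211 CPM with DMSO to 316 and 341 CPM with GSI (0.65, SE 0.08, edgeR adjusted p = 0.00155), though the call was lost when either DMSO library was left out (0.0548 without replicate 1, 0.0664 without replicate 2). It rose likewise in the combination against dTAG-13 (0.67, SE 0.08, adjusted p = 0.00121), again as the 1 gene called of 16. With dTAG-13 it fell in the average over GSI status (-0.43, SE 0.06, adjusted p = 0.00701), a call that ended without DMSO replicate 1 (0.0741), DMSO replicate 2 (0.0714) or dTAG-13 replicate 2 (0.0569). MYO1G thus moved the other way from MYO7B with GSI and the same way as ADCYAP1 with dTAG-13. Of 9 class II heavy and light chains tested, edgeR and DESeq2 called 0 with GSI against DMSO, with 2 at an unadjusted p below 0.05 and a median of 0.20.

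**Figure D4:**
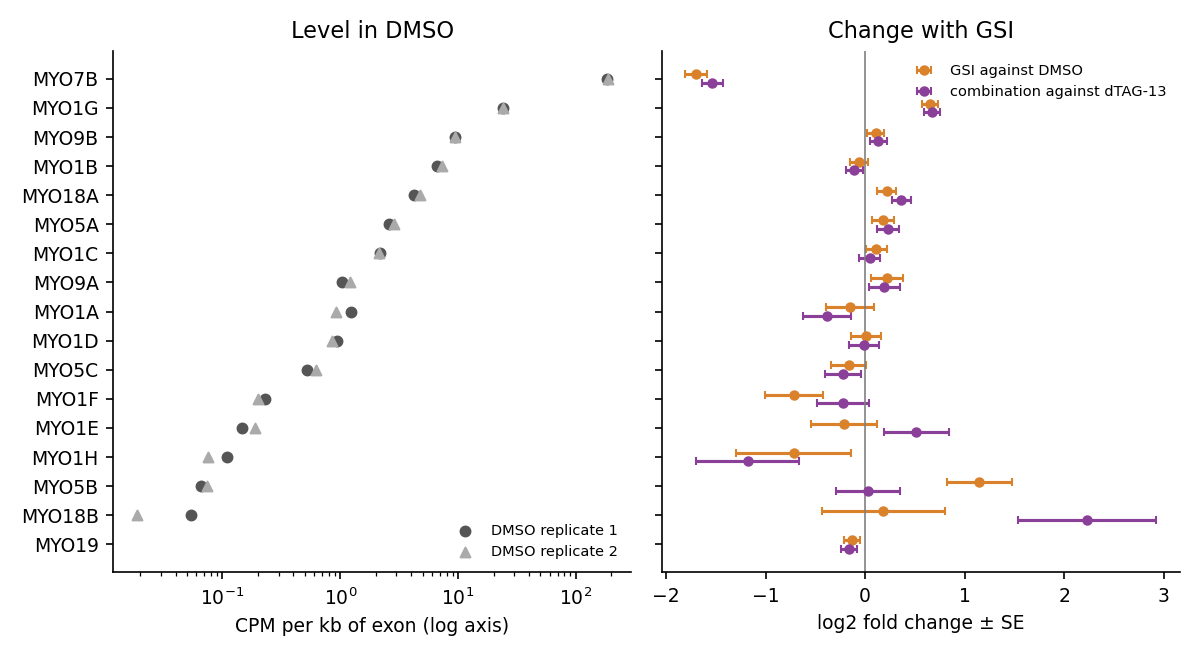
Left, level of MYO7B and the 16 other tested unconventional myosins in the 2 DMSO libraries, in CPM per kb of exon on a log axis (MYO19 has no length under its identifier and shows none). Right, their log2 fold change ± SE with GSI against DMSO and with the combination against dTAG-13; MYO7B lies at -1.70 and -1.54 and MYO1G at 0.65 and 0.67.

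The partners that hold MYO7B at microvillar tips were mostly near 0, while general actin and membrane linkers of the same list were expressed. USH1C had 0 counts in all 8 libraries, which allows at most 0.136 to 0.173 CPM per library (3 counts, counting error only), and ANKS4B and CDHR5 had group means of at most 0.023 and 0.0469 CPM. CDHR2 had means of 0.763 ± 0.309 CPM with DMSO, 0.139 ± 0.00115 with dTAG-13, 0.619 ± 0.0792 with GSI and 0.401 ± 0.0918 with the combination. CALML4, the light chain, was expressed at means of 14.2 to 16.8 CPM in the 4 groups, with a log2 fold change of 0.24 with GSI against DMSO (SE 0.12, adjusted p = 0.4). SLC9A3R1, a membrane scaffold (300.4 ± 5.68 CPM with DMSO and 292 ± 24.2 with GSI), EZR, which ties actin to the membrane (184 ± 6.47 and 190 ± 5.42), and PLS1, an actin bundler (52.2 ± 1.81 and 46.6 ± 3.74), were the highest of the list. Of its 15 genes 6 were tested, and edgeR and DESeq2 called 0 of them with GSI against DMSO or with dTAG-13 against DMSO, with 0 and 1 at an unadjusted p below 0.05. Of the 10 genes of the Usher complex, the related set that holds the tip links of hair cells, 4 were tested and 0 called by either tool with GSI against DMSO, with 1 at an unadjusted p below 0.05 and a median of 0.36.

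For ADCYAP1, the machinery that turns cyclic AMP signals on and off was expressed, but its own receptor was not seen. ADCYAP1R1, the receptor selective for PACAP, had 0 counts in all 8 libraries, and VIPR1 stayed at group means of 0.0233 to 0.166 CPM. VIPR2, which binds both PACAP and the related peptide VIP, stood at 6.12 ± 0.402 CPM with DMSO, 5.77 ± 0.474 with dTAG-13, 7.13 ± 0.131 with GSI and 6.86 ± 1.49 with the combination. Its log2 fold change with GSI against DMSO was 0.22 (SE 0.17, adjusted p = 0.628). Of the 5 related peptide genes, VIP, GHRH and GIP had 0 counts throughout, and GCG and SCT reached group means of at most 0.0235 and 0.0705 CPM.

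The enzymes that cut and finish peptide hormones were partly present. PCSK1, the neuroendocrine convertase, and CPE, the carboxypeptidase that trims its products, had 0 counts in all libraries. FURIN (49 ± 4.01 CPM with DMSO) and PCSK7 (93.5 ± 3.83), convertases of the general secretory route, CPD, a carboxypeptidase (73.2 ± 10.3), and PAM, which amidates peptides such as PACAP (9.82 ± 0.081), were expressed. Of 9 genes tested in this list edgeR and DESeq2 called 0 with GSI against DMSO, with 0 at an unadjusted p below 0.05 (median 0.12). In the list of 32 cyclic AMP signalling genes 26 were tested, 1 rose with GSI against DMSO, 0 fell and 25 did not pass (median 0.04, 5 at an unadjusted p below 0.05).

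The gene that rose was PDE7A, a phosphodiesterase that breaks down cyclic AMP in T cells. It went from 109 and 116 CPM with DMSO to 163 and 152 CPM with GSI (0.48, SE 0.08, edgeR adjusted p = 0.0118), and from 121 and 116 CPM with dTAG-13 to 164 and 153 CPM with the combination (0.42, SE 0.08, adjusted p = 0.0293). The call against DMSO was lost when DMSO replicate 1 (0.205), DMSO replicate 2 (0.149) or the GSI library numbered 1 (0.0604) was left out, nor the other without dTAG-13 replicate 1 (0.171), dTAG-13 replicate 2 (0.401) or combination replicate 1 (0.158), or in a fit of the 4 compared libraries (0.0768). GNAS, the stimulatory G protein subunit, was the most abundant of the list at 1006 to 1168 CPM over the libraries, followed by the protein kinase A subunits PRKAR1A (133 to 186 CPM) and PRKACA (126 to 151 CPM).

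Over the 8 lists of myosins, their partners, peptides, receptors, processing enzymes and cyclic AMP genes, which leave out the NOTCH-linked genes and the cell type markers, 70 genes were tested. Of these edgeR called 2 higher and 0 lower with GSI against DMSO, MYO1G and PDE7A, and the same 2 with the combination against dTAG-13. Over all tested genes 0.863% were called lower and 0.876% higher in the first, and 0.569% and 0.639% in the second. A count of 0 lower is near these shares. With dTAG-13 against DMSO edgeR called 0, with 9 at an unadjusted p below 0.05, and with the combination against GSI 0, with 6. The shares over all tested genes were 0.0192% lower and 0% higher, and 0.0383% lower and 0.0192% higher. An unadjusted p below 0.05 was reached by 601 and 648 of all 15646 tested genes. In each of these last 2 comparisons DESeq2 called 1, MYO1G.

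The neighbours on the chromosome were looked at to see whether the falls extended beyond the genes. Around MYO7B, 8 of the 10 nearest protein-coding genes were tested (the 5 before and the 5 after it), and around ADCYAP1 9 of 10. Next to MYO7B, IWS1, an elongation factor, had a log2 fold change of -0.20 with GSI against DMSO and LIMS2, an adhesion adaptor, of -0.16, with adjusted p-values of 0.355 and 0.613. In the combination against dTAG-13 IWS1 had -0.41 (SE 0.09), from 117 ± 0.0454 to 88.3 ± 10.6 CPM, which missed the threshold in edgeR (adjusted p = 0.0515) and passed it in DESeq2 (0.0183). Around MYO7B 2 of the 8 neighbours had an unadjusted p below 0.05 with GSI against DMSO and 4 of 8 in the combination against dTAG-13, where edgeR called 0 and DESeq2 called 1, IWS1. Over all 15646 tested genes, 2197 and 2037 had such an unadjusted p in these comparisons. Next to ADCYAP1, YES1, a Src-family kinase, had 0.04 and METTL4, a methyltransferase, 0.06, with adjusted p-values of 0.942 and 0.851. Around ADCYAP1, edgeR and DESeq2 called 0 genes with GSI against DMSO, with 2 at an unadjusted p below 0.05. For so few genes a count of 0 is near edgeR's share over all tested genes, 0.863% lower and 0.876% higher. With dTAG-13 against DMSO both tools called 0 around either gene, with 0 at an unadjusted p below 0.05.

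Around MYO7B 1 of the 8 tested neighbours fell with GSI against DMSO, beside 0.863% of all tested genes. This was GPR17, a G protein-coupled receptor known from oligodendrocyte precursors. It stood at 1.27 and 1.36 CPM with DMSO, 1.43 and 0.979 with dTAG-13, 0.188 and 0.338 with GSI, and 0.745 and 0.336 with the combination. Its libraries with GSI alone lay below both DMSO libraries (log2 fold change -2.31, SE 0.49, edgeR adjusted p = 0.0345), at a level of only a few counts. Leaving out any 1 of the 4 libraries ended the call (adjusted p from 0.0653 to 0.313), and in the combination against dTAG-13 it did not pass (-1.14, SE 0.43, adjusted p = 0.279). GPR17 lies within the span of LIMS2 on the opposite strand, and the strand setting of the counting is not given in the sources used here.

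**Figure D5:**
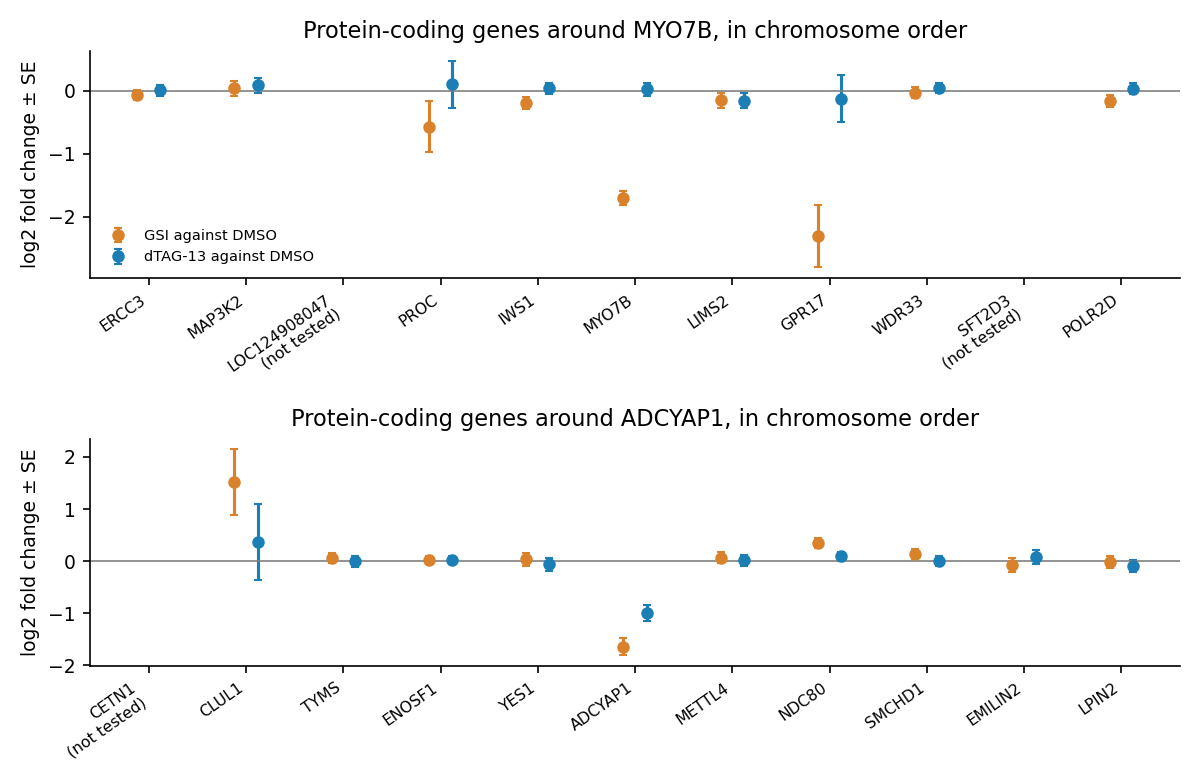
Log2 fold change ± SE with GSI and with dTAG-13, each against DMSO, for the 5 protein-coding genes before and after MYO7B (top) and ADCYAP1 (bottom), in chromosome order. Around MYO7B the values other than its own and that of GPR17 lie between -0.57 and 0.10, and the wide bar near ADCYAP1 is CLUL1, at a mean of 0.503 CPM.

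Markers of the tissues in which these genes are known were near 0. The 16 epithelial markers summed to 1.98 to 3.4 CPM per library, and 9 of them, among them EPCAM, CDH1 and CDX2, had 0 counts throughout. The 15 neuronal and neuroendocrine markers summed to 5.26 to 7.77 CPM, with GAP43, STMN2, NEFL and DCX at 0 counts. The 12 T cell markers summed to 3567 to 4135 CPM, and all 12 were tested. The epithelial sum was 2.66 to 2.86 CPM with DMSO and 2.11 to 2.12 with GSI, but 1.98 to 2.61 with dTAG-13 and 2.61 to 3.4 with the combination, so it was lower with GSI in cells without dTAG-13 and not in cells with it. The neuronal sum was 5.26 to 7.08 CPM with DMSO, 6.71 to 6.91 with dTAG-13, 6.66 to 7.18 with GSI and 6.47 to 7.77 with the combination. Within it TUBB3, a tubulin of neurons, had means in the same order as ADCYAP1, at 0.52 ± 0.164 CPM with DMSO, 0.256 ± 0.231 with dTAG-13, 0.19 ± 0.00368 with GSI and 0.117 ± 0.0977 with the combination, too low to be tested. TUBB3 is 1 of 15 genes in that list. The 3 of them that were tested all had positive log2 fold changes with GSI against DMSO (0.17 to 0.84, median 0.31), and 0 were called. The part of epithelial or neuronal cells in the levels of MYO7B and ADCYAP1 was not tested. Of the 12 T cell markers, 2 rose and 1 fell with GSI against DMSO (median log2 fold change -0.06, 5 at an unadjusted p below 0.05). Over all tested genes 0.876% were called higher and 0.863% lower, and 2197 of 15646 had an unadjusted p below 0.05. TRAC, which encodes the constant part of the alpha chain of the T cell receptor, rose from 80.4 ± 3.3 to 213 ± 15.5 CPM (log2 fold change 1.40, SE 0.11, edgeR adjusted p = 2.38e-05) and likewise in the combination against dTAG-13 (1.41, SE 0.11, adjusted p = 2.58e-05). CD7, a surface protein of T cells, fell, with 227 ± 7.55 CPM under DMSO and 153 ± 20.2 CPM under GSI (-0.57, SE 0.10, adjusted p = 0.0139), and CD2, an adhesion receptor, rose from 67 ± 4.19 to 94.4 ± 9.63 CPM (0.50, SE 0.10, adjusted p = 0.023). The call of CD7 ended when DMSO replicate 1 (0.192) or 2 (0.172) or the GSI library numbered 1 (0.0879) was left out, and that of CD2 when DMSO replicate 1 (0.148) or 2 (0.371) or the GSI library numbered 2 (0.0888) was. In the combination against dTAG-13 CD7 fell too (-0.52, adjusted p = 0.0301), though not without dTAG-13 replicate 1 (0.135), dTAG-13 replicate 2 (0.345) or combination replicate 1 (0.184), or when only the 4 libraries compared were fitted (0.0562). In bulk RNA, fewer cells with a transcript and less of it per cell cannot be told apart.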

How the data were processed

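RNA of 8 libraries (4 treatments of 24 hours, 2 replicates each) was read from both ends in libraries that keep the strand, per the labels' protocols. The authors deposited whole-number counts for 63677 genes. Per the submitters' processing notes they used STAR 2.5.2a, featureCounts, DESeq2 1.12.4 and hg19; the strand setting and annotation used are not given in the sources at hand. They also deposited tables of each treatment against DMSO, whose log2 fold changes, errors, scores (fold change over error), mean signal (scaled counts) and p-values are the authors'.

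Total counts ran from 17544319 to 22180009 per library. After filterByExpr and TMM scaling, 1 quasi-likelihood model with a mean for each of the 4 groups was fitted (edgeR 4.0.16, R 4.3.3, 4 residual degrees of freedom), with 2-sided tests and Benjamini-Hochberg adjustment over 15646 genes at a threshold of 0.05. CPM use TMM-scaled library sizes, SD is over 2 libraries, and SE is the fold change over the root of its F statistic. Levels per kb divide by the exon length in GENCODE 29. Motifs were searched on both strands of the 250 bases before each start listed in a RefSeq promoter table, whose 2 starts for ADCYAP1 lie inside the annotated gene. A symbol with several identifiers took the one that the reference gene table gives it, otherwise the first listed.

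MYO7B, ADCYAP1 and the gene lists were chosen with earlier results of these data known. Named are, of each list, called genes and up to 4 of the highest, 5 neighbours on each side, and the 5 genes most correlated with each member over 8 libraries (mean of at least 5 CPM, prior count 2, no clone names); partners and receptors of the 2 genes are named beyond this rule. No 2 replicates were the same library: their counts gave chi-square values of 4.62 to 14 per degree of freedom. The fit was tested on simulated data. Alternatives were the size factors of DESeq2, no filter, a replicate block, DESeq2 1.42.0 with its Wald test, the compared libraries alone, and leaving out each library; the ratio of both genes and a block with crossed DMSO numbers were added after seeing the data. MYO7B-AS1, which RefSeq places antisense within MYO7B, was not analysed here, and the gene at rank 1 of those most correlated with MYO7B is not reported here.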

Additional observations from a re-analysis of the deposited data

How the results depend on the processing

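For MYO7B, no alternative run turned a direction in the 7 comparisons, and none moved the 4 tested ones across the threshold. Leaving out 1 library, its log2 fold change ran from -1.72 to -1.68 with GSI against DMSO, from -1.69 to -1.40 in the combination against dTAG-13 and from -1.67 to -1.38 in the combination against DMSO. It ran from 0.01 to 0.02 for dTAG-13 against DMSO, from 0.03 to 0.32 for the combination against GSI, from 0.02 to 0.17 for the average dTAG-13 effect and from 0.01 to 0.30 for the departure from additivity. For ADCYAP1 the ranges were -1.79 to -1.50, -1.42 to -1.07, -2.42 to -2.07, -1.14 to -0.85, -0.77 to -0.42, -0.88 to -0.71 and 0.23 to 0.58 in the same order. The call of its average dTAG-13 effect ended without 3 of the 8 libraries and held without the other 5.

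ADCYAP1 with dTAG-13 against DMSO passed the threshold without the filter (-0.99), with the Wald test of DESeq2 (-1.0), with the replicate block (-1.0, adjusted p = 0.0131) and with the compared libraries alone (-1.0), but not with the size factors of DESeq2. Of the genes of the 8 lists and the NOTCH-linked ones, cell type markers left out, 7 were called with GSI against DMSO (5 to 7 leaving out 1 library) and 7 in the combination against dTAG-13 (6 to 7). With dTAG-13 against DMSO the count went from 0 to 2 without the filter, with DESeq2 and with the replicate block, and to 3 with the compared libraries alone. In the combination against GSI it went from 0 to 1 without the filter, with DESeq2 and with the block. The cause was not tested. Neighbours called with GSI against DMSO were 1 in the main fit, 2 without the filter and with the block, and 0 leaving out any compared library.

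The replicate numbers were not shown to pair the samples: replicate differences correlated across genes at 0.138 to 0.214 among dTAG-13, GSI and combination, but at -0.108 to -0.0304 between DMSO and these. The block raised the calls over all genes with GSI against DMSO from 272 to 559 and with dTAG-13 against DMSO from 3 to 23. With the DMSO numbers crossed in the block, 1581 genes and 16 list genes were called with GSI against DMSO. No group had 4 libraries, so single libraries could not be tested as outliers. The low counts of ADCYAP1 and GPR17 limit the precision of their values.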
